A study of Mus musculus with 4 samples.

Results

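Globins are the protein chains of haemoglobin, and the transcripts examined here are those of the mouse α-type and β-type globin genes. The genes were chosen by family membership and not by a rule on measured values, though with earlier results of these data known. They are Hba-x, Hba-a1 and Hba-a2 of the α-globin cluster and Hbb-y, Hbb-bh1, Hbb-b1 and Hbb-b2 of the β-globin cluster. Of these 7 genes 6 had a row among the 23906 gene symbols of the deposited tables, and Hbb-b2 had none under that symbol. Of the 6 rows, 2 (Hba-x and Hbb-y) were at 0 in every library and 2 (Hba-a1 and Hba-a2) held the same value in every library, which left 3 distinct profiles above 0. The remaining globin rows (Hbb-bs, Hbb-bt, Hbb-bh2, Hbq1a and Hbq1b) were read alongside them. Hbb-bt lies at the gene that the GENCODE vM1 annotation names Hbb-b2, and it is not counted in the 6 rows.

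RNA sequencing was carried out on LSK-SLAM cells, a lineage-negative, Sca1-positive, cKit-positive population with a SLAM surface profile that is enriched for haematopoietic stem cells (HSCs), from BRE-GFP transgenic mice. In these mice a BMP response element drives GFP, so GFP separates cells by their current BMP signalling, and a GFP- cell may have signalled before it was sorted. There were 4 libraries, 1 each of GFP+ and GFP- cells from fetal liver (FL) at embryonic day 14 and 1 each of GFP+ and GFP- cells from adult bone marrow (BM). All 4 groups carry the transgene, which was kept on a C57BL/6 background, and for these libraries neither the age of the adults nor the number of animals pooled is given in the sources used here. With 1 library per group no difference below has a replicate check, no test was possible, and every ratio describes these libraries. In such bulk samples fewer cells of a type and less RNA per cell cannot be told apart.

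Haemoglobin is made of α-type and β-type chains together with haem, and it is produced in red cell precursors in such quantity that its transcripts dominate their RNA. The genes within each cluster are used in order of development. Primitive red cells of the yolk sac use the embryonic genes Hba-x, Hbb-y and Hbb-bh1, and definitive red cells, made first in the FL and later in the BM, use Hba-a1, Hba-a2 and the adult β genes. C57BL/6 mice carry the haplotype of the β-globin cluster whose adult genes are named Hbb-bs and Hbb-bt, and other strains carry a haplotype with a major gene, Hbb-b1, and a minor gene, Hbb-b2.

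In NCBI37/mm9 with the GENCODE vM1 annotation, the β-type genes lie on the minus strand of chromosome 7, with Hbb-y at chr7:111000259-111001754, Hbb-bh1 at chr7:110990150-110991678, Hbb-b1 at chr7:110975048-110976610 and Hbb-b2 at chr7:110961038-110962510. The embryonic genes thus come first in the direction of transcription and the adult pair last. The α-type genes lie on the plus strand of chromosome 11 in the same order of use, with Hba-x at chr11:32176400-32178116, Hba-a1 at chr11:32183511-32184465 and Hba-a2 at chr11:32196489-32197301. Each of these genes has 3 exons and codes for a protein.

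The adult genes of each cluster are close copies, which decides what the rows can show. GENCODE vM1 gives the name Hbb-b1 to the gene at the position of Hbb-bs, and Hbb-b2 to the gene at that of Hbb-bt. In its sequences these names therefore stand for the Hbb-bs and Hbb-bt pair, not for the major and minor genes of the other haplotype. The coding sequences of this pair in GENCODE vM1 differed at 1 of 444 bases. Those of Hba-a1 and Hba-a2 differed at 1 of 429 bases. The stretches around those bases are shown because they hold the whole coding difference within each pair, with the differing base in capitals.
Hbb-b1 coding: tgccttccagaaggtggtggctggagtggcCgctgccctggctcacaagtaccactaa
Hbb-b2 coding: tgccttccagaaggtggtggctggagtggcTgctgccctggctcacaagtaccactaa
Hba-a1 coding: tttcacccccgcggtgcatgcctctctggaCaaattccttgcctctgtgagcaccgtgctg
Hba-a2 coding: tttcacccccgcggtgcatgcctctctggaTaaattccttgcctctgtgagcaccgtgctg
Of all 50-base stretches of the Hbb-b1 transcript, untranslated ends included, 52.3% also occurred in the Hbb-b2 transcript, and 67.5% of those of Hba-a1 occurred in Hba-a2. Reads from the shared stretches cannot be given to one copy from their sequence, and the division of reads within a pair therefore rests on the stretches that differ and on the authors' correction for reads that map to several places. No shared stretch was found in the comparisons made for embryonic genes, which were Hbb-bh1 with Hbb-b1 and Hbb-y, and Hba-x with Hba-a1. The coding sequence of Hbb-bh1 differed from that of Hbb-b1 at 115 bases and from that of Hbb-y at 105 bases, and 0 of its 565 transcript stretches of 50 bases occurred in either.

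The 250 bases before the transcription start are shown for the genes on which the results turn, since the adult and embryonic genes differed in level and the members of the adult β pair differed between tissues. The sequences and starts are those of RefSeq on GRCm38.p6, and each is written 5′ to 3′ on the strand of its gene.
Hbb-bs, chr7:103827929-103828178, minus strand: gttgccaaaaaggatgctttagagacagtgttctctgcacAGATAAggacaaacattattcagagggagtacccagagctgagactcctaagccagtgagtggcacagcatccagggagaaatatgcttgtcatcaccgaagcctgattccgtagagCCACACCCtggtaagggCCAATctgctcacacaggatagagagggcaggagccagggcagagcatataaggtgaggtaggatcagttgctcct
Hbb-bt, chr7:103813924-103814173, minus strand: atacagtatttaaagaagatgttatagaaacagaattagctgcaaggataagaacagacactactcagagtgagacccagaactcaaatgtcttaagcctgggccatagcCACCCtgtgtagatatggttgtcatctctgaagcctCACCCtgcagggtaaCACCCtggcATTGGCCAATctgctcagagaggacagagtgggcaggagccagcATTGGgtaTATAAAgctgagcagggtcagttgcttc
Hba-a1, chr11:32283422-32283671, plus strand: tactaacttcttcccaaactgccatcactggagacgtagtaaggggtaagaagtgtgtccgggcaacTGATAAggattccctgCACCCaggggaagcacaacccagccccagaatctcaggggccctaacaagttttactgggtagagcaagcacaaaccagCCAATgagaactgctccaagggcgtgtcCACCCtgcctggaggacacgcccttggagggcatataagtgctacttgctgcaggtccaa
Hba-x, chr11:32276350-32276599, plus strand: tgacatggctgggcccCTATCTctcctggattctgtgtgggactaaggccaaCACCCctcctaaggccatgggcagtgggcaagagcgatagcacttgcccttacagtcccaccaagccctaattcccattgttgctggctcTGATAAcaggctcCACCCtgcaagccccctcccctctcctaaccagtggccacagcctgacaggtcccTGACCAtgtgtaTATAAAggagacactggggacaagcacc
Hbb-y, chr7:103853208-103853457, minus strand: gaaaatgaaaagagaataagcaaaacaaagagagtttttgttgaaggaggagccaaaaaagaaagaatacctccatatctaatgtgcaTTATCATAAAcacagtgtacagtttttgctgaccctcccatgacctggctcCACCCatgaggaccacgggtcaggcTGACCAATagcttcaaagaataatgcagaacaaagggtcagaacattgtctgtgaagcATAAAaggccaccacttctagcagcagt
Capitals mark every match, on either strand, to the motifs searched: CACCC and its longer form CCACACCC, which Krüppel-like factors such as Klf1 bind, the CCAAT box, the TATA-box forms ATAAA and TATAAA, the GATA motif AGATAA with its variant AGATAG, the further GATA form TGATAA with its variant TGATAG, and the sequence TGACCA, a relative of the half-sites that nuclear receptors bind. CACCC lies within CCACACCC and ATAAA within TATAAA, and in Hbb-y a TGACCA match runs on into a CCAAT match and a TGATAA match on the other strand into an ATAAA match. Hbb-bs was the one of the 5 windows with CCACACCC, which begins at position -93 counted from its start and occurred in 3.20% of 32851 mouse promoter windows. Hbb-bt held 3 CACCC and 3 CCAAT matches, against 1 of each in Hbb-bs, and the longest stretch the pair shared was 14 bases. Both embryonic windows held TGACCA, beginning at -40 in Hba-x and at -86 in Hbb-y, and the 3 adult windows held none, with a share of 11.4% over all windows. CACCC was in all 5 windows and in 52.0% of all windows, CCAAT in 4 of the 5 and in 33.8%, and any of the GATA motifs in 4 of the 5 and in 26.5%. ATAAA was in 37.3% of all windows and TATAAA in 12.4%. These are matches of letters and not measured sites. The Hbb-bs window matched NCBI37/mm9 exactly at 1 place, at the start of the gene that GENCODE vM1 names Hbb-b1, and the Hbb-bt window did so at the gene it names Hbb-b2. The Hba-a1 and Hba-a2 windows shared a run of 247 bases. GENCODE vM1 places the start of some of these genes further upstream, by 200 bases for Hba-x and by 168 for Hbb-bs.

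Expression was deposited as FPKM, meaning read fragments scaled for transcript length and for library size, and can be compared between genes. FPKM summed to between 541453 and 1000848 per library, and 12372 to 17345 genes were above 0, fewer in the GFP+ library of each tissue. The tissue labels were checked on 9 genes of fetal stem cells and fetal tissue, such as Igf2bp1 and H19, whose summed FPKM was 544 and 182 in the FL GFP+ and GFP- libraries and 6.99 and 7.61 in those of the BM. The GFP labels are not checked by these genes or by any other row examined here, so every direction between GFP+ and GFP- cells rests on the labels as deposited. All 11 housekeeping genes were above 0 in every library. The LSK-SLAM label was checked on 12 genes, which summed to 1011 and 1017.5 in the FL and to 427 and 711 in the BM (GFP+ first in each), and Procr and Tek, both stem cell surface receptors, were at 0 in BM GFP+. The BM libraries also held transcripts of mature cells that a lineage-negative sort is meant to remove. The summed FPKM of 8 neutrophil genes was 107 and 36.5 in the FL libraries, 54503 in BM GFP+ and 9894 in BM GFP-, and that of 5 B cell genes was 96.3, 41.9, 3327 and 871 in the same order.

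The adult α-type genes were detected in every library. Hba-a1 stood at an FPKM of 247 (FL GFP+), 215 (FL GFP-), 5151 (BM GFP+) and 651 (BM GFP-), and the row of Hba-a2 held the same values. BM GFP+ was thus far above the other libraries, and the FL libraries lay close together. Ranked by FPKM, Hba-a1 was at place 20 in BM GFP+ and at place 418 in FL GFP+. Since the rows are identical, they give 1 measurement of the adult α-type pair and not 2.

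The adult β-type gene Hbb-b1 had the same order of libraries. Its FPKM was 629.8 (GFP+) and 623 (GFP-) in the FL against 14659 (GFP+) and 2042 (GFP-) in the BM, and Hbb-bs, the C57BL/6 gene whose promoter window lies at the start of Hbb-b1, held the same values in a row of its own. By FPKM it was at place 2 in BM GFP+, a place it shares with Hbb-bs, and at place 36 in BM GFP-, 149 in FL GFP+ and 117 in FL GFP-. The other adult gene of the haplotype, Hbb-bt, had an FPKM of 979.5 (FL GFP+), 1021 (FL GFP-), 4755 (BM GFP+) and 710.0 (BM GFP-). In both FL libraries Hbb-bt was the higher of the adult β rows, and in both BM libraries Hbb-b1 was.

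The embryonic genes were at or near 0. Hba-x, the embryonic α-type gene (ζ), and Hbb-y, an embryonic β-type gene (εy), were listed at 0 in all 4 libraries. Hbb-bh1, the other embryonic β-type gene (βH1), had an FPKM of 0.177 (GFP+) and 4.15 (GFP-) in the FL against 0.243 (GFP+) and 0 (GFP-) in the BM. FL GFP- was therefore the one library in which an embryonic globin gene was above an FPKM of 1. The embryonic rows made up 0.0158% (GFP+) and 0.393% (GFP-) of the summed FPKM of the 6 rows in the FL, and 0.000975% (GFP+) and 0% (GFP-) in the BM. A listed 0 does not show absence. Of the 3098 genes whose FPKM in FL GFP- was within 2-fold of that of Hbb-bh1, the share listed at 0 was 19.3% (FL GFP+), 15.1% (BM GFP+) and 1.94% (BM GFP-).

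**Figure D1:**
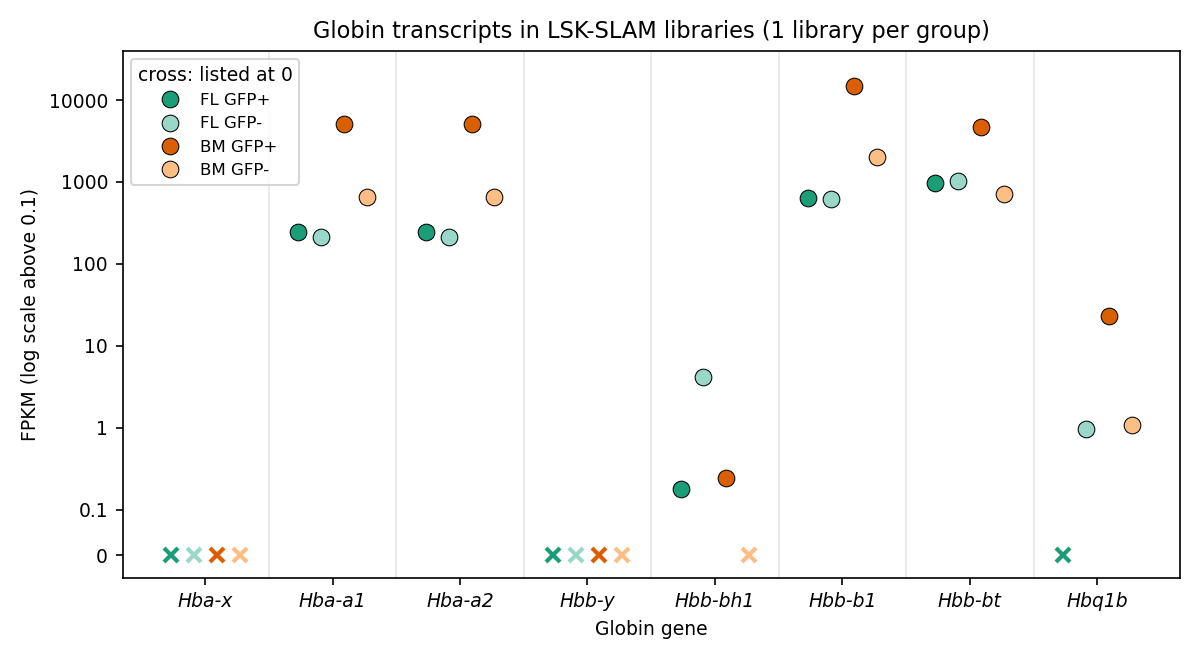
FPKM (log scale above 0.1, linear below) of 8 globin genes in the 4 libraries, 1 point per library, with a cross where a gene is listed at 0. The adult genes Hba-a1, Hba-a2, Hbb-b1 and Hbb-bt reach 4755 to 14659 in BM GFP+, while Hba-x and Hbb-y are at 0 throughout and Hbb-bh1 is above 1 in FL GFP- alone, at 4.15.

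The first question of the design was how BMP-activated cells differ from non-activated cells within a tissue. In the BM the adult globin genes were higher in GFP+ cells, by 7.91-fold for Hba-a1 and 7.18-fold for Hbb-b1, from the values above. Hbb-bt, which is not among the 7 symbols but lies at the gene that GENCODE vM1 names Hbb-b2, was 6.70-fold higher. Of the 13609 genes that reached an FPKM of 1 in any library, 514 had a fold at least as high as that of Hba-a1. That is 3.86% of those above 0 in either BM library, where genes at 0 in BM GFP- alone count among the 514. Of the 6 rows 4 were more than 2-fold higher in BM GFP+, against 19.7% of all genes, and 0 were more than 2-fold lower, against 22.9%. The 4 included Hbb-bh1, whose values were 0.243 and 0, and the identical rows of Hba-a1 and Hba-a2. Here and below the 6 rows, unlike all genes, were not filtered for an FPKM of 1. Hba-x and Hbb-y, at 0 throughout, are thus in the counts and medians of the rows and could not be called. On the scale of log2(FPKM + 1), which understates the change of low genes, the median ratio of the 6 rows was 1.58 and that of all genes was 0.03.

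In the FL the same comparison gave almost equal levels of adult globin. GFP+ over GFP- was 1.15 for Hba-a1, 1.01 for Hbb-b1 and 0.959 for Hbb-bt. Hbb-bh1 was the 1 row more than 2-fold lower in GFP+, by 23.4-fold at the low levels given above, against 28.0% of all genes lower by that measure. 0 of the 6 rows were more than 2-fold higher, against 16.6% of all genes. The median log2 ratio was 0.01 over the rows and 0 over all genes.

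The second question was how FL and BM cells differ. Among GFP+ cells the BM library was 20.8-fold higher for Hba-a1 and 23.3-fold higher for Hbb-b1, and Hbb-bt was 4.85-fold higher. More than 2-fold higher in BM were 3 of the 6 rows, against 32.1% of all genes, and 0 were lower, against 24.1%. Among GFP- cells the BM library was 3.03-fold higher for Hba-a1 and 3.28-fold higher for Hbb-b1, while Hbb-bt was 1.44-fold lower. Here 3 rows were higher, against 20.0% of all genes, and 1 row, Hbb-bh1, was lower, at 0 against 4.15, with 19.2% of all genes lower. The median log2 ratio of the 6 rows was 2.23 among GFP+ and 0.80 among GFP- cells, and that of all genes was 0.03 in both. These comparisons share libraries with those between GFP fractions and are not independent of them.

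The balance between α-type and β-type transcripts varied little when Hbb-b1 stood for the β side and split by tissue when Hbb-bt was added. Red cells need both chains in equal amounts. The ratio of Hbb-b1 to the sum of Hba-a1 and Hba-a2 was 1.27 (FL GFP+), 1.45 (FL GFP-), 1.42 (BM GFP+) and 1.57 (BM GFP-). The lowest and the highest ratio were 1.23-fold apart, while Hbb-b1 itself spanned 23.5-fold and Hba-a1 spanned 23.9-fold over the same libraries. With Hbb-bt added to the β side, a choice made after the values were seen, the ratios were 3.25 and 3.82 in FL against 1.88 and 2.11 in BM (GFP+ first), so that both FL libraries then stood above both BM libraries. If the identical α rows are a single measurement listed under both symbols, the ratios of Hbb-b1 to Hba-a1 were 2.55, 2.89, 2.85 and 3.14. The row Hbb-bs, identical to Hbb-b1, was left out of the β side of all these ratios.

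Within the adult β pair the ratio differed more between tissues than between GFP fractions. Hbb-b1 over Hbb-bt was 0.643 (GFP+) and 0.610 (GFP-) in the FL against 3.08 (GFP+) and 2.88 (GFP-) in the BM. The ratio was 4.80-fold higher in BM than in FL in the GFP+ and 4.72-fold higher in the GFP- libraries, and between GFP fractions of a tissue it differed by 1.05-fold in the FL and 1.07-fold in the BM. Hbb-bt accordingly made up 60.9% and 62.1% of the FPKM of the pair in FL against 24.5% and 25.8% in BM. Here Hbb-b1 was counted once and its identical row Hbb-bs was left out. Adding Hbb-bs would raise every ratio by the same factor and lower every Hbb-bt share, but would leave the folds between libraries unchanged. Whether reads were divided between those symbols was not tested, so which of the pair was higher in FL depends on this choice. A ratio within a library is not touched by the scaling of that library. The near-identity of the coding sequences shown above bears on it, and how the reads were shared out between the pair was not tested. There was no second library of either fraction with which to gauge its error, and the fractions of a tissue share that tissue's other properties.

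**Figure D2:**
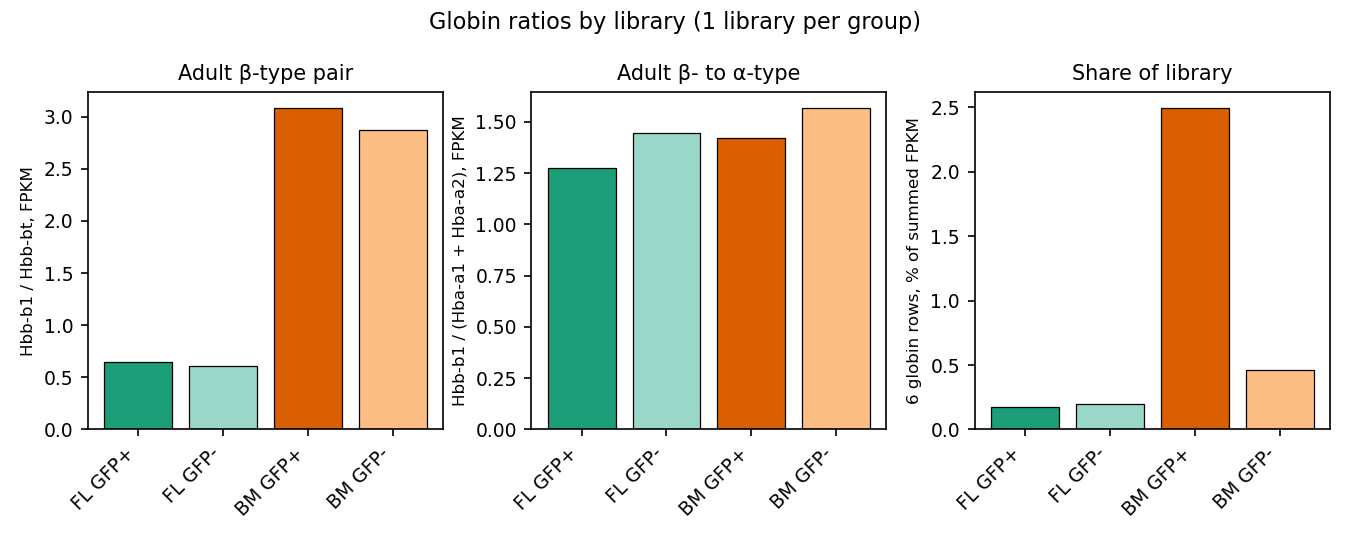
Bars from 0 give, for each of the 4 libraries, the FPKM ratio of Hbb-b1 to Hbb-bt, the FPKM ratio of Hbb-b1 to Hba-a1 plus Hba-a2, and the 6 globin rows as a percent of the summed FPKM. The β-pair ratio splits by tissue (0.610 and 0.643 in FL, 2.88 and 3.08 in BM), the β-to-α ratio stays between 1.27 and 1.57, and the globin share is highest in BM GFP+ at 2.49%.

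The 6 rows together took 0.174% (GFP+) and 0.195% (GFP-) of the summed FPKM in the FL, and 2.49% (GFP+) and 0.459% (GFP-) in the BM. Both FL libraries therefore held less globin by this share than either BM library. With Hbb-bt, the highest globin row of the FL, the shares were 0.325% (GFP+) and 0.384% (GFP-) in the FL, and 2.97% (GFP+) and 0.556% (GFP-) in the BM, the same order with a smaller gap between the GFP- libraries. Counting the identical α rows once lowered the shares to 0.136%, 0.156%, 1.98% and 0.369% without a change of order.

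The remaining globins were low. Hbq1b, a θ-type gene of the α cluster, had an FPKM of 0 (FL GFP+), 0.974 (FL GFP-), 23.4 (BM GFP+) and 1.08 (BM GFP-). It was 21.6-fold higher in BM GFP+ than in BM GFP-, and 301 genes had a fold at least as high. Its neighbour Hbq1a and the β-cluster gene Hbb-bh2 were at 0 in all libraries. Outside the clusters, neuroglobin (Ngb) was at 0 throughout, myoglobin (Mb) reached 1.17 at most, in FL GFP-, and cytoglobin (Cygb) reached 0.0919 in BM GFP- and was at 0 elsewhere.

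The genes that supply haem and the red cell membrane were followed as a list of 29 symbols, of which 26 had a row. Ahsp, the chaperone of free α chains, had none under that symbol or its older one, Eraf. In BM GFP+ over BM GFP- 15 of the 26 were more than 2-fold higher (against 19.7% of all genes), 0 were lower (against 22.9% of all genes) and 11 were within 2-fold, with a median log2 ratio of 1.14. In FL GFP+ over FL GFP- 8 were higher (against 16.6% of all genes), 9 were lower (against 28.0% of all genes) and 9 were within 2-fold, with a median of 0.04. Alas2, the enzyme of the first step of haem synthesis in red cells, had an FPKM of 11.9 (GFP+) and 12.9 (GFP-) in the FL against 259 (GFP+) and 47.8 (GFP-) in the BM, and so was 5.42-fold higher in the GFP+ cells of the BM and close to equal in those of the FL. Rhd, an Rh blood group protein, stood at 19.7, 27.3, 175 and 33.0 in the same order. Both genes shared with the adult globins a BM GFP+ library far above the rest.

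Other abundant genes of the list did not. Urod, a later enzyme of haem synthesis, was at 114, 100.1, 144 and 134. The carbonic anhydrases of red cells differed from each other, Car2 being at 420.4, 547, 669 and 895 and Car1 at 9.99, 0, 236 and 338. Prdx2, a peroxidase abundant in red cells, was at 488, 636, 804 and 604. In the BM, Car1 and Car2 were lower in GFP+ than in GFP- cells, by 1.43-fold and 1.34-fold. On the log2(FPKM + 1) scale the highest BM ratio of the list belonged to Slc4a1, the band 3 anion exchanger of the red cell membrane, which is named here after its values were seen, with 18.9, 13.7, 115 and 9.59 and a ratio of 3.45.

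Relative to Alas2, Hbb-b1 varied little, with ratios of 52.9 (FL GFP+), 48.4 (FL GFP-), 56.5 (BM GFP+) and 42.7 (BM GFP-). Both transcripts were highest in BM GFP+, and their ratio was somewhat higher in GFP+ than in GFP- cells of each tissue.

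**Figure D3:**
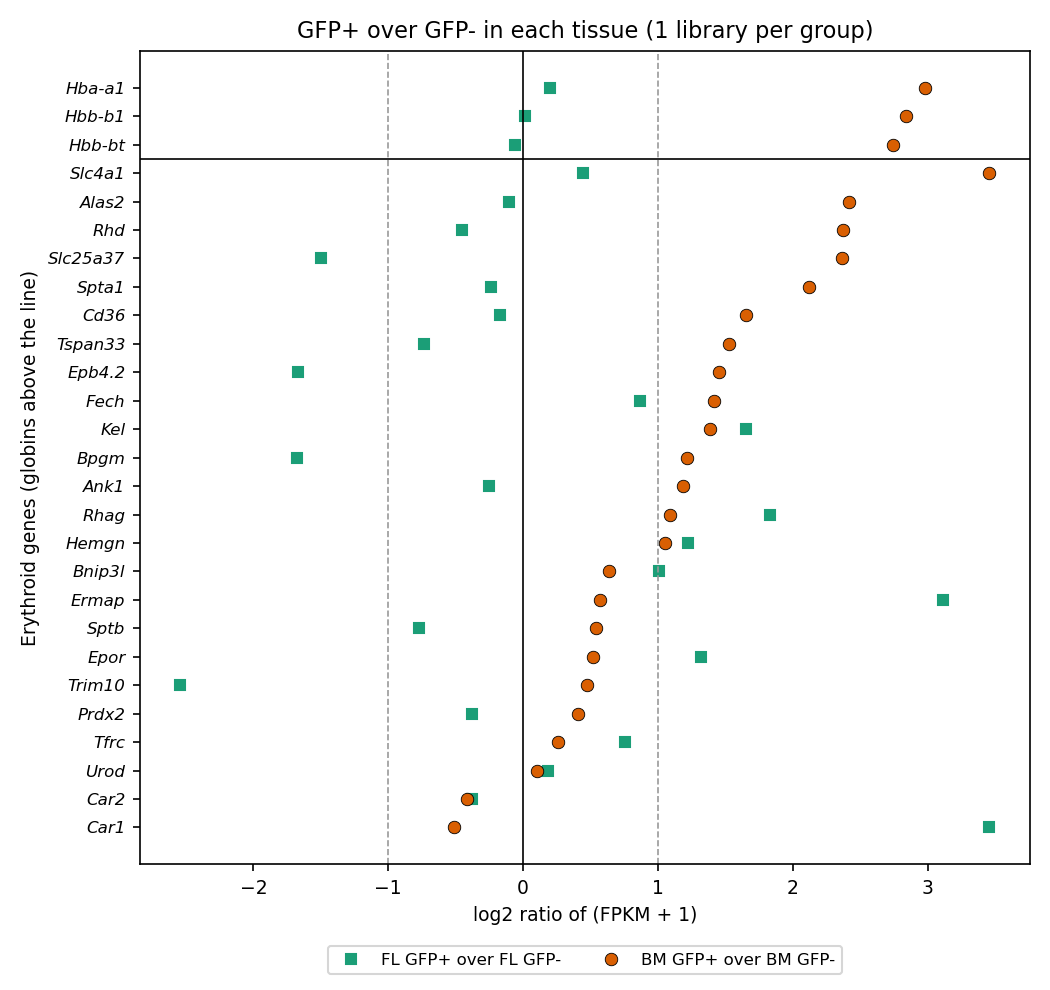
The log2 ratio of (FPKM + 1) of GFP+ over GFP- is plotted for 24 of the erythroid genes and 3 globins, with squares for FL and circles for BM, a solid line at 0 and dashed lines at 2-fold. In BM 14 of the 24 genes lie more than 2-fold higher and the globins lie between 2.74 and 2.98, while in FL the globins lie between -0.06 and 0.20 and the other genes fall on both sides of 0.

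The share of the globin gene regulators that was higher or lower in GFP+ cells was near that of all genes in both tissues. All 26 genes of that list had a row. In BM GFP+ over BM GFP- 5 were more than 2-fold higher (against 19.7% of all genes), 6 were lower (against 22.9% of all genes) and 15 were within 2-fold, with a median log2 ratio of -0.06. In FL GFP+ over FL GFP- 4 were higher (against 16.6% of all genes), 6 were lower (against 28.0% of all genes) and 16 were within 2-fold. Klf1, the activator of adult β-globin that binds CACCC boxes, had an FPKM of 19.6 (GFP+) and 13.9 (GFP-) in the FL against 86.7 (GFP+) and 52.0 (GFP-) in the BM. It was 1.67-fold higher in BM GFP+ and 1.42-fold higher in FL GFP+, both within 2-fold. Klf2, a related factor that acts on the embryonic genes, was at 0, 0.749, 127 and 32.3. Gata2, a factor of stem and progenitor cells, was at 138, 87.6, 25.0 and 86.4, and Lmo2, an adaptor of the GATA factor complex, was at 263, 238, 123 and 412. Both were more than 2-fold lower in BM GFP+ than in BM GFP-.

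Nfe2, which binds the locus control region of the β cluster, was at 167, 153, 156 and 192, within 1.25-fold in all comparisons. Hdac1, a histone deacetylase of repressor complexes, was at 205, 160.0, 101 and 131, and Dnmt1, the maintenance DNA methyltransferase, was at 167, 106, 64.0 and 57.3. Both were lower in the BM than in the FL of the same fraction. Igf2bp1, an RNA-binding protein of the fetal programme, was at 426, 58.8, 0 and 0.0184. Bcl11a, the repressor of embryonic and fetal globin genes, is named here after its values were seen, with 80.9, 51.8, 43.0 and 35.5. It was thus present in all libraries, including FL GFP-, where Hbb-bh1 was highest.

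Markers of mature cells moved with the adult globins in the BM. Of the 10 erythroblast markers with a row 7 were more than 2-fold higher in BM GFP+ than in BM GFP- (against 19.7% of all genes) and 0 were lower (against 22.9% of all genes), and their summed FPKM was 199 (FL GFP+), 113 (FL GFP-), 816 (BM GFP+) and 188 (BM GFP-). Trim10 was at 0 in FL GFP+, and no erythroblast marker was at 0 in another library. This list shares Alas2 and Rhd, among others, with the list of haem and membrane genes. Markers of other lineages were higher as well: 7 of 8 neutrophil markers, 5 of 5 B cell markers, 4 of 5 T cell markers and 9 of 10 macrophage markers were more than 2-fold higher in BM GFP+, against the same 19.7% of all genes, and 0 of these 28 were lower. S100a8, one of the neutrophil markers, was 7.93-fold higher, at 25286 against 3189, close to the fold of Hba-a1.

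The summed T cell markers were 8.90, 10.8, 249 and 82.0 in the order FL GFP+, FL GFP-, BM GFP+ and BM GFP-, and the summed macrophage markers were 104, 60.3, 295 and 90.5. In the BM libraries all markers of these 5 lineages with a row were above 0. In FL GFP+ and FL GFP- respectively, 4 and 2 neutrophil, 2 and 1 B cell, 3 and 3 T cell and 3 and 1 macrophage markers were at 0. Megakaryocyte markers summed to 61.9, 75.0, 392 and 466, with 1 of 7 more than 2-fold higher and 1 lower in BM GFP+ than in BM GFP-, and 11 of the 12 LSK-SLAM markers were more than 2-fold lower in that comparison, against 22.9% of all genes. The 9 hepatocyte markers summed to 452, 70.3, 79.8 and 54.8, highest in FL GFP+, where the adult globins were close to their level in FL GFP-. The part that mature cells have in the globin levels was not tested.

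**Figure D4:**
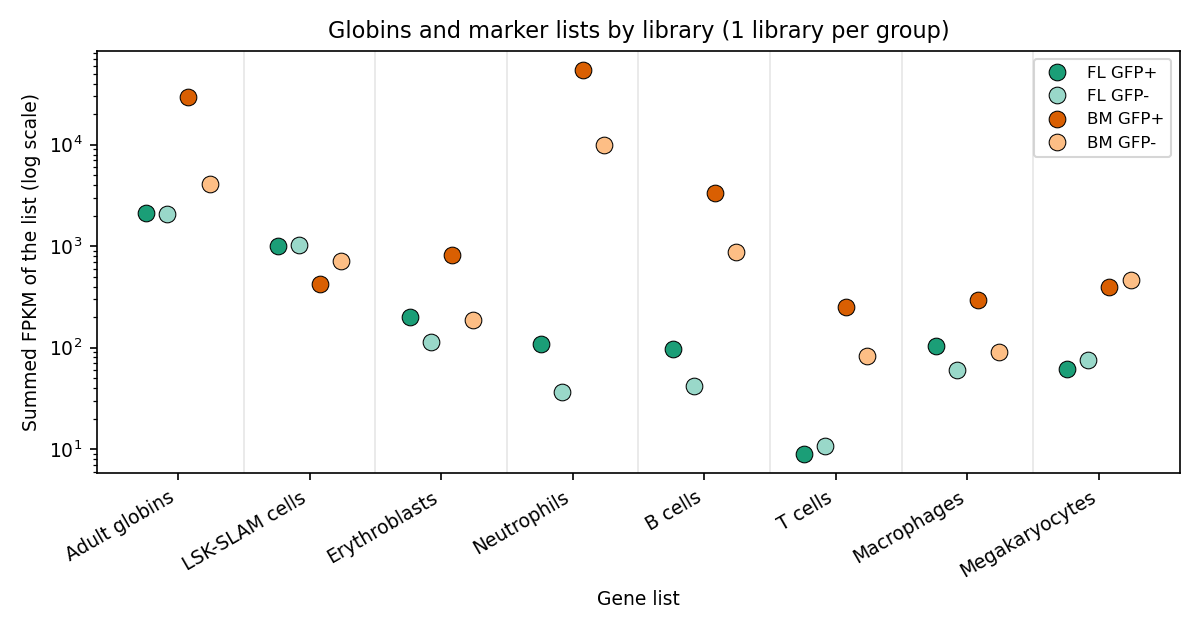
Summed FPKM (log scale) of the adult globins Hba-a1, Hba-a2, Hbb-b1 and Hbb-bt and of 7 marker lists in the 4 libraries, 1 point per library. From BM GFP- to BM GFP+ the globins (4054 to 29716), erythroblast (188 to 816), neutrophil (9894 to 54503), B cell, T cell and macrophage sums are higher and the LSK-SLAM sum is lower (711 to 427).

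Genes with a pattern like that of the globins were ranked by the Euclidean distance between centred log2(FPKM + 1) values over the 4 libraries, among the 8686 genes that reached an FPKM of 10 in any library. Apart from the identical row Hbb-bs, the nearest to Hbb-b1 were C1qtnf4 (distance 0.11), 1700124L16Rik (0.19), Cd209d (0.21) and Adam8 (0.32), each at 0 in both FL libraries and between 21.1 and 26.1 in BM GFP+. Alas2 came next, at place 6 with 0.32, and Hbb-bt was at place 638. The nearest to Hba-a1 were Hbb-bs, C1qtnf4, 1700124L16Rik and Rln3, among others, at distances of 0.22 to 0.29. The nearest to Hbb-bh1 were Arid2 (0.44), Morn4 (0.63), Patl1 (0.68), Hid1 (0.72) and Gm20939 (0.73). For a gene at 0 in the FL, the ratio of BM to FL has no value, and its distance depends on the 1 added to FPKM. With 4 points that share their libraries, these distances are a description only.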

How the data were processed

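The files hold FPKM that the authors made from SMARTer libraries by means of TopHat and Cufflinks (2.2.1 in the submitters' processing notes), corrected for fragment bias and multiple mapping, and normalized across libraries with Cuffnorm by its geometric method. The study's methods name NCBI37/mm9 and the submitters' processing notes name mm10, so no coordinate was taken from the files. The study's methods give the uniquely mapped reads of each library, more for GFP+ than for GFP- in each tissue. The files give no read counts per gene, so the count behind a value and its error are unknown, and no count model was applied.

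Groups followed the labels, with 1 sample each. Ratios were taken on the deposited FPKM and on log2(FPKM + 1), with the study's threshold of more than 2-fold. All-gene counts used genes that reached an FPKM of 1 in any library. Comparisons were made with Python 3.11.15, numpy 2.4.6 and pandas 2.3.3, plots with matplotlib 3.10.9, and the calls were tested on simulated data. Other genes named are, per list, at most 8 with the highest FPKM in any library or at 0 in all, and the 5 nearest in pattern, exceptions being stated. Markers illustrate their lists. The members and lists were chosen with earlier results of these data known. Alternatives were a pseudocount of 0.1, 3 rescalings, thresholds of 1.5-fold and 4-fold, no filter, identical rows counted once, totals without small RNA rows and, chosen after seeing the data, adding Hbb-bt. Promoter windows came from RefSeq. No protein sequence was used here. Some genes that these rules name are not reported here.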

Additional observations from a re-analysis of the deposited data

Results flagged for a closer look

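The GFP+ over GFP- ratio of 3 globin rows (Hbb-bt, Hbb-bh1 and Hbq1b) went in opposite directions in the tissues. Hbb-bt was lower in GFP+ in the FL (979.5 against 1021) and higher in the BM (4755 against 710.0), a difference of 2.80 on the log2(FPKM + 1) scale. Taken the other way, Hbb-bt in BM over FL was higher in GFP+ and lower in GFP- cells, which is the same difference of 2.80. Hbb-bh1 was lower in GFP+ in the FL (0.177 against 4.15) and higher in the BM (0.243 against 0), a difference of 2.44, and its BM over FL ratios also went in opposite directions, by the same 2.44. Hbq1b was lower in GFP+ in the FL (0 against 0.974) and higher in the BM (23.4 against 1.08), a difference of 4.53. With 1 library per group none of these differences was tested, and the FL ratio of Hbb-bt was 0.959, close to equal. The BM over FL ratio of Hbb-bh1 in GFP+ cells was also close to equal, at 0.08 (log2). It became -0.03 under equal FPKM totals and -0.02 under equal totals without globin rows, so its direction depends on the scaling.

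Other genes named in the report also had GFP+ over GFP- ratios of opposite direction in the tissues, untested as well. As BM minus FL on the log2(FPKM + 1) scale, the difference was 2.52 for Alas2, 2.82 for Rhd, 0.79 for Prdx2 and 2.75 for Klf2, which were higher in GFP+ in the BM and lower in the FL. It was -3.97 for Car1, -2.40 for Gata2, -1.89 for Lmo2, -0.42 for Nfe2, -0.73 for Hdac1 and -2.86 for Igf2bp1, which were lower in GFP+ in the BM and higher in the FL. The BM over FL ratios went in opposite directions in GFP+ and GFP- cells for Slc4a1 (GFP+ minus GFP- of 3.01), Prdx2 (0.79), Lmo2 (-1.89) and Nfe2 (-0.42). Some of these ratios were close to equal, and their direction depends on the scaling. FL GFP+ over FL GFP- was 1.09 for Nfe2 and 1.11 for Lmo2, and equal FPKM totals shift that comparison by -0.26 (log2). BM GFP- over FL GFP- was 1.25 for Nfe2, where the shift is -0.43.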

How the results depend on the processing

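Of 140 values recomputed under another setting, 108 stayed within 1.5-fold of the value reported (for counts, within 1.5 times), and none that was past 2-fold changed its direction. Rescaling to equal FPKM totals shifted all genes by between -0.26 and -0.63 (log2). It lowered the BM GFP+ over FL GFP+ log2 ratio to 3.75 for Hba-a1, 3.91 for Hbb-b1 and 1.65 for Hbb-bt, and the count of all genes higher in BM GFP+ than BM GFP- to 1725 (with 4145 lower, against 2677 and 3116 as deposited) and of regulators to 3. Under equal totals 3438 genes were higher and 4799 lower in BM GFP+ over FL GFP+ (4371 and 3276 as deposited), 2034 and 3877 in BM GFP- over FL GFP- (2721 and 2609), and 1688 and 4222 in FL GFP+ over FL GFP- (2261 and 3804). The FL GFP+ over FL GFP- ratio of Hba-a1, 0.20, became -0.06 to -0.02 under the 3 rescalings.

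A pseudocount of 0.1 moved Hbb-bh1 to -3.94 (FL GFP+ over GFP-), 1.78 (BM GFP+ over GFP-) and -5.41 (BM GFP- over FL GFP-). Counting identical rows once raised β to α to 2.55, 2.89, 2.85 and 3.14 (FL GFP+, FL GFP-, BM GFP+, BM GFP-). Adding Hbb-bt, chosen after seeing the data, gave 3.25 and 3.82 in FL, embryonic shares of 0.00843% and 0.200% and globin shares of 0.325% and 0.384% (FL GFP+ and FL GFP-).

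At 1.5-fold 11 regulators were higher in FL GFP+. At 4-fold 0 regulators were higher and 2 lower in BM GFP+, and 3 (FL) and 7 (BM) haem and membrane genes were higher in GFP+. At 4-fold all-gene counts fell to 914 (higher, FL GFP+), 1051 (higher, BM GFP+), 1898 (lower, BM GFP+ over FL GFP+), and 1619 and 1076 (higher and lower, BM GFP- over FL GFP-). Without the filter they were 6173 (lower, FL GFP+), 6535 (lower, BM GFP+), and 5383 and 4032 (higher and lower, BM GFP- over FL GFP-). No paired analysis was possible because the labels carry no replicate numbers and no result comes from a test. The read count behind a value is unknown, and of genes matched to Hbb-bh1 in FL GFP- the share at 0 was 19.3% (FL GFP+), 15.1% (BM GFP+) and 1.94% (BM GFP-).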
